A study of Caenorhabditis elegans with 2 samples.

Results

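Convergent gene pairs are neighbouring protein-coding genes that are transcribed towards each other, so that their 3' ends face. They were taken from the Ensembl WBcel235 annotation as a left gene on the plus strand and a right gene on the minus strand that do not overlap and whose 3' ends lie at most 1000 bp apart. This rule, which uses no measured value, found 1806 pairs among 9077 pairs of neighbouring protein-coding genes at most 1000 bp apart in any orientation. Each pair was scored by the highest peak signal of a peak summit between its 3' ends or up to 500 bp into either gene, leaving out bases 500 bp or less from the 5' end of any protein-coding gene. The bases that remain are called eligible below.

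The measurements were ChIP-seq peak lists for HIM-1, the worm's SMC-1 cohesin subunit, in Caenorhabditis elegans. The worms were hermaphrodite young adults of the transgenic strain YL577, whose transgene fuses GFP and FLAG to the C terminus of HIM-1, taken 47 hours after starved L1 larvae were synchronized following bleaching. There was 1 group of 2 biological replicates, precipitated with an antibody to GFP according to the sample description. A separate antibody entry names HIM-1 itself. Whole animals were used, so a peak cannot be assigned to a tissue, and few cells with much HIM-1 cannot be told apart from many cells with little. No untreated, untagged or input library was analysed here, and with 1 group of 2 libraries no difference below has a test.

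Cohesin is a ring-shaped complex built on the SMC-1 and SMC-3 proteins that holds sister chromatids together and forms loops in chromatin. In budding yeast, cohesin is loaded elsewhere and collects between convergent genes, where the transcribing polymerases on both sides point at the same place. The sequence between convergent genes also holds the signals at which both transcripts are cleaved and polyadenylated.

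The plus-strand sequence between the 3' ends of 6 pairs is shown because these pairs had the highest scores among those with their strongest summit in that stretch, outside the chromosome whose sequence is not printed here. Each is the part within 149 bases of the summit, or the whole stretch where that is shorter, read from the RefSeq genome of the same WBcel235 (ce11) build. The 21 bases centred on the summit are in capitals. The stretches are II:5844699-5844997 for nep-25 and ZK1248.17, III:4491450-4491626 for cpg-1 and atf-7, IV:4388881-4389142 for tald-1 and rpl-7A, III:6958932-6959109 for let-711 and rpn-6.1, III:6373905-6374096 for thoc-2 and rps-13, and III:12651997-12652295 for pqn-80 and tpst-1.
nep-25 and ZK1248.17: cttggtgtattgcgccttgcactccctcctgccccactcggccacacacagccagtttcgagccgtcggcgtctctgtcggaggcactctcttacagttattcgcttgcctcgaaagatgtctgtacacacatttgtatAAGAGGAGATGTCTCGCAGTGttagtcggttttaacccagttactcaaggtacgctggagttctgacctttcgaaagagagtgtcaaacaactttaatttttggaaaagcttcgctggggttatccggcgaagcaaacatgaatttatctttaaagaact
cpg-1 and atf-7: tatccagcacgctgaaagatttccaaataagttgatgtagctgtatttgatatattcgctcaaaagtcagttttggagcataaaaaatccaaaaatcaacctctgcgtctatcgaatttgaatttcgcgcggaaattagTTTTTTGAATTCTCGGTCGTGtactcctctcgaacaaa
tald-1 and rpl-7A: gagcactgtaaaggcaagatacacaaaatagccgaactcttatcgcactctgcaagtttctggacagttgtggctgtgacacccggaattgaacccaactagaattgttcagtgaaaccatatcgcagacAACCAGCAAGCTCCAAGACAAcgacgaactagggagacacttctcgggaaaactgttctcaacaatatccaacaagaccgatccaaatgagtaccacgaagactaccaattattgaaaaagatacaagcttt
let-711 and rpn-6.1: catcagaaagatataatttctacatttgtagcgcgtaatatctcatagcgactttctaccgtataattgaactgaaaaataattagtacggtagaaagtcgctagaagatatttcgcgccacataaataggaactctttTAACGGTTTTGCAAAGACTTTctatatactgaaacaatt
thoc-2 and rps-13: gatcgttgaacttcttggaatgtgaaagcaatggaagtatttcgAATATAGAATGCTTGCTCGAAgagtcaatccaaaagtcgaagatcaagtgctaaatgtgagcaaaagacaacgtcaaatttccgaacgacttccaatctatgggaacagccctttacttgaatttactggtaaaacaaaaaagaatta
pqn-80 and tpst-1: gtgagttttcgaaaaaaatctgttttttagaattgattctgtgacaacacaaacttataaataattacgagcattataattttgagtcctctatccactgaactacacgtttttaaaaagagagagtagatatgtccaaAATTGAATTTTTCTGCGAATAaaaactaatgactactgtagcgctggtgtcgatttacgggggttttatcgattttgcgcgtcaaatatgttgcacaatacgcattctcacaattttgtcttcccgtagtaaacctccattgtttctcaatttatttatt
The whole stretch between pct-1 and wsp-1, IV:8188883-8188903, is added as an example, chosen after its values were seen, of a pair whose 3' ends almost meet. It has no capitals, because the summit lies 7 bp inside wsp-1.
pct-1 and wsp-1: gcttctacttctcatcgaatt

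The G and C content of the printed stretches ran from 32.6% at let-711 and rpn-6.1 to 47.5% at nep-25 and ZK1248.17. The stretch between nep-25 and ZK1248.17 overlaps sls-2.1, a spliced-leader RNA gene on the plus strand at II:5844865-5844974, whose start lies 17 bp from the summit. The other 5 of the 6 stretches with a summit overlap no annotated gene of any type. The stretch between let-711 and rpn-6.1 contains an inverted repeat with 18-base arms, tagcgactttctaccgta at III:6958977-6958994 and tacggtagaaagtcgcta at III:6959018-6959035, with 23 bases between the arms. Arms of 12 or more bases were found in the 201 bp around the strongest summit of 9 of 175 pairs (5.14%, exact 95% interval 2.38 to 9.54%). They were found in 28 of 899 windows (3.11%, interval 2.08 to 4.47%) centred between the 3' ends of pairs with no entry in any list, so the intervals overlap.

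In the authors' optimal list, which holds 2051 peaks that passed their reproducibility threshold, 175 of the 1806 convergent pairs (9.69%, exact 95% interval 8.36 to 11.1%) carried at least 1 summit. The background share over all 9077 neighbouring pairs was 2.39%. Taking the 2051 strongest entries of each replicate's own list gave 186 pairs (10.3%) in replicate 1 and 170 pairs (9.41%) in replicate 2, or 9.86 ± 0.626% (SD, n = 2). The background shares for these lists were 2.51 and 2.21%. Same-strand neighbours carried a summit in 42 of 5552 cases (0.756%), and divergent neighbours in 0 of 1719. The divergent 0 is fixed by the rule, because every base of those windows lies 500 bp or less from a 5' end. The divergent pairs nevertheless count in all the background shares given here. These shares do not compare like with like, because the rule on 5' ends leaves a median of 1190 eligible bp in a convergent window, 302 bp in a same-strand window and 0 bp in a divergent window. Densities per eligible base, given further on, take this into account.

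The 175 pairs held 208 of the 2051 summits (10.1%), with a median signal of 91.3 and a range of 60.8 to 496. The other 1843 summits had a median of 82.9 and reached 497. Convergent windows held 11 of the 25 strongest summits of the list, 16 of the 50 strongest, 23 of the 100 strongest and 33 of the 200 strongest. Their share was thus 44.0% at the very top of the list and 16.5% among the first 200. The signal is the authors' own value per peak, is used here only to rank peaks within a list, and is not comparable between the replicates' lists and the optimal list.

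The highest score was that of ccct-1 and ndx-4 on chromosome I, where the 3' ends lie 387 bp apart. Its signal was 496 in the optimal list, 203 in replicate 1 and 303 in replicate 2, which placed it second among all optimal peaks, number 4 in replicate 1 and first in replicate 2. The gene ndx-4 encodes a Nudix hydrolase of diadenosine tetraphosphate. The next pair was ubc-14, a ubiquitin-conjugating enzyme gene, with vps-28, which encodes a subunit of the ESCRT-I complex of endosomal sorting. It scored 407 in the optimal list, 207 in replicate 1 and 212 in replicate 2, and its 3' ends lie 741 bp apart. With T28A8.3 and mlh-1, it is the only pair with 3 optimal summits.

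The third pair was pct-1, a cyclin-dependent kinase gene of the PCTAIRE family, with wsp-1, the worm WASP gene for an activator of actin branching. Only 21 bp separate their 3' ends, and the summit fell 7 bp inside wsp-1, in its 3' UTR, with a signal of 355 in the optimal list, 157 in replicate 1 and 205 in replicate 2. A similarly tight pair, xpc-1 and cpsf-1, came 2 places later with 10 bp between the 3' ends and a signal of 328, and with 157 and 178 in replicates 1 and 2. Its summit lay 82 bp inside the 3' UTR of cpsf-1, the gene for the largest subunit of the cleavage and polyadenylation specificity factor. The gene xpc-1 encodes a DNA damage recognition protein of nucleotide excision repair. In both pairs the strong peak lies over the end of a transcript, and there is almost no sequence between the genes.

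The pair between them, nep-25 and ZK1248.17, scored 346 in the optimal list, 142 in replicate 1 and 205 in replicate 2. The gene nep-25 belongs to the neprilysin metallopeptidase family, and the summit lies beside the spliced-leader RNA gene in the printed sequence. The sixth, cpg-1 and atf-7, scored 317 in the optimal list, 149 in replicate 1 and 173 in replicate 2, and its summit lay 28 bp beyond the end of atf-7. The gene cpg-1 encodes a chondroitin proteoglycan of the eggshell and atf-7 a bZIP transcription factor. The seventh, top-1 and sepa-1, scored 307, 125 and 180 in the optimal list, replicate 1 and replicate 2, with another spliced-leader RNA gene, sls-2.9, 32 bp from the summit. The gene top-1 encodes DNA topoisomerase I, and sepa-1 an autophagy receptor for P granule proteins.

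The last 5 of the 12 highest pairs lay between 285 and 253 in the optimal list. The gene sqv-5, which encodes a chondroitin synthase, with T24D1.2 scored 285 in the optimal list, 165 in replicate 1 and 131 in replicate 2. The pair of tald-1, the transaldolase gene, and rpl-7A, a large ribosomal subunit gene, had 273, 135 and 139 in the optimal list, replicate 1 and replicate 2. The pair of let-711, the NOT1 scaffold gene of the CCR4-NOT deadenylase complex, and rpn-6.1, a proteasome lid gene, had 264, 130 and 136. The ranks of these 3 pairs were 5, 14 and 15 in the list of replicate 1 and 47, 34 and 39 in that of replicate 2, so the highest of them in replicate 1 was the lowest in replicate 2.

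The eleventh pair was rsp-8, an SR-protein splicing factor gene, with ntl-3, the gene of another CCR4-NOT subunit. It scored 253 in the optimal list and differed most between the replicates among these 12, with 85.6 (rank 100) in replicate 1 and 182 (rank 9) in replicate 2. The twelfth was thoc-2, a gene of the THO complex of mRNA export, with rps-13, a small ribosomal subunit gene. It scored 253 in the optimal list, 119 in replicate 1 and 136 in replicate 2. Of the 12 pairs, 10 had no tRNA, rRNA, snRNA or snoRNA gene within 250 bp of the strongest summit, the exceptions being nep-25 with ZK1248.17 and top-1 with sepa-1.

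**Figure D1:**
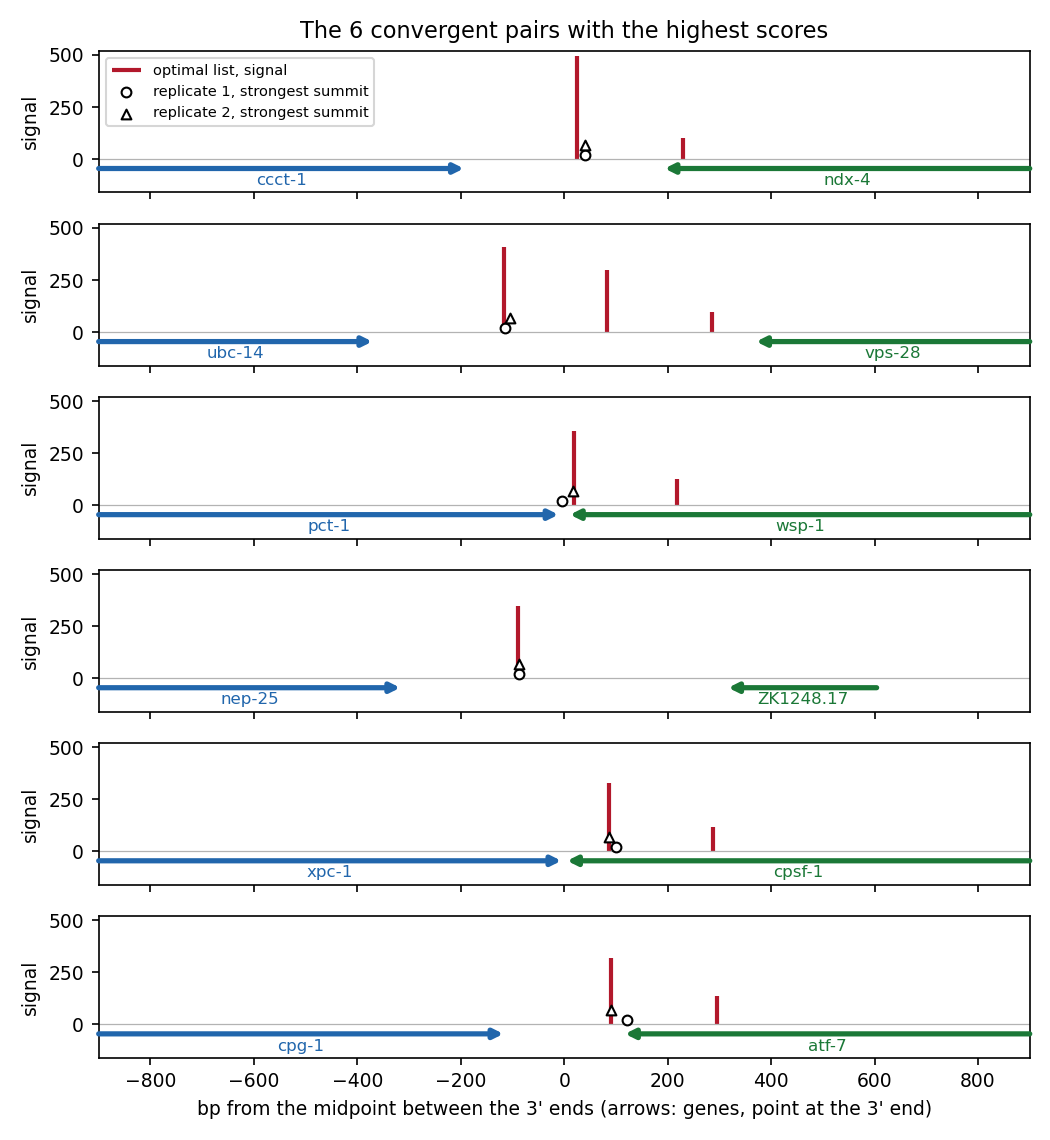
Maps of the 6 highest-scoring convergent pairs. The horizontal axis gives the distance in bp from the midpoint between the 3' ends, arrows are genes pointing to their 3' ends, red lines are optimal summits with their signal on the vertical axis, and circles and triangles mark the position only of the strongest summit in replicates 1 and 2. The strongest summits of both replicates lie close to that of the optimal list in each map, and every weaker summit drawn lies about 200 bp to the right of a stronger one.

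The weaker summits in these maps follow a regular spacing of the lists themselves. No 2 neighbouring entries of any list were closer than 199 bp. In the optimal list 150 neighbouring summits lay within 250 bp of each other, at a median of 204 bp, and the one at the lower coordinate had the higher signal in 148 of them (98.7%). The same held in 92.9% of 2010 such neighbours in the pooled list and in 90.8 and 90.9% in the full lists of replicates 1 and 2. Among convergent pairs 144 had 1 summit, 29 had 2 and 2 had 3, and 28 of the 33 distances between neighbouring summits of a pair were 199 to 230 bp. In 27 of these 28 the left summit was the stronger. The number of summits in a pair and the side on which the weaker ones lie therefore move with this spacing, whose source was not tested. Leaving out every summit with a stronger one within 250 bp, a choice made after seeing the data, kept 174 pairs (9.63%).

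Per eligible base, convergent windows held 96.1 summits per Mb (exact Poisson 95% interval 83.5 to 110), with 101 in replicate 1 and 93.8 in replicate 2. All other windows of 500 bp on each side of a 3' end held 51.2 per Mb (46.8 to 55.8), with 53.1 in replicate 1 and 48.3 in replicate 2. The ratio was 1.88 in the optimal list, 1.90 in replicate 1 and 1.94 in replicate 2 (1.92 ± 0.0272, SD, n = 2). Without summits within 250 bp of a small RNA gene the densities were 83.6 and 43.8 per Mb. Without summits that have a stronger one within 250 bp the ratio was 1.74.

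The other 3' ends were not alike. Convergent genes whose 3' ends overlap, 1613 pairs that the rule leaves out, had 130 summits per Mb (113 to 150), with 136 and 127 in replicates 1 and 2. Convergent pairs over 1000 bp apart, 921 in number, had 43.2 (33.8 to 54.5), with 47.4 and 37.8. The remaining 3' ends, which face no convergent partner, had 34.7 (30.4 to 39.4), with 35.3 and 32.5. Sequence over 500 bp from both kinds of gene end had 8.22 (7.56 to 8.93), with 8.47 and 8.64. Density thus fell in the order overlapping, close, distant and no convergent partner, and in both replicates the 4 classes kept that order. Over all chromosomes the intervals of the distant convergent pairs and of the remaining 3' ends overlap.

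**Figure D2:**
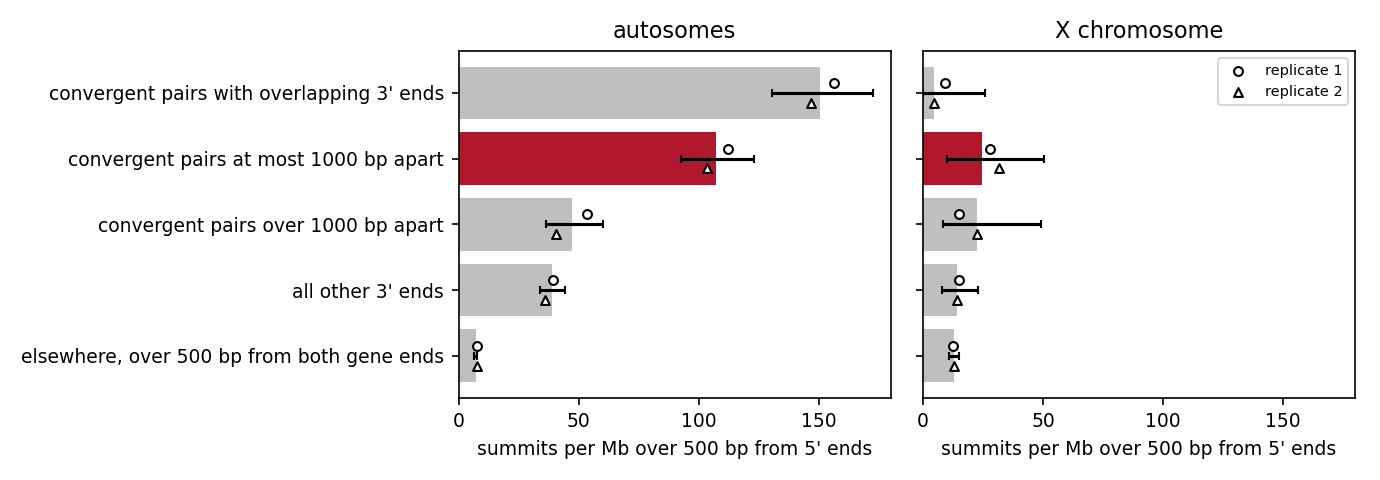
Optimal summits per Mb of eligible sequence in 5 classes of sequence on the autosomes (left) and the X chromosome (right). Bars are the optimal list with exact Poisson 95% intervals, and circles and triangles are the 2051 strongest entries of replicates 1 and 2. On the autosomes the close convergent pairs (red) had 107 per Mb, against 38.8 for 3' ends without a convergent partner, and on X they had 24.6 from 7 summits. The overlapping pairs, highest on the autosomes, had 4.61 on X from 1 summit.

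Within the pairs, 125 of the 208 summits (60.1%) lay between the 3' ends, a stretch that held 28.3% of the eligible bases. The share was 57.1% in replicate 1 and 60.1% in replicate 2. In pairs with more than 50 bp between the 3' ends it was 125 of 160 (78.1%), with 31.9% of the eligible bases there. The other summits comprised 40 in a 3' UTR, 22 in a coding exon, 20 in an intron and 1 in another exon. Measured from the nearer 3' end, the median summit lay 55 bp past it, and 146 of 208 (70.2%) lay within 200 bp on either side of it.

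The density rose from inside the genes outwards. At 401 to 500 bp inside a gene it was 17.2 per Mb, with 24.1 in replicate 1 and 10.3 in replicate 2. Over the last 100 bp of a gene it was 94.4, with 91.4 and 97.4. From 101 to 200 bp past the nearer 3' end it was 253 (interval 185 to 339), with 264 and 293. From 1 to 100 bp past the end it was 186 (137 to 246), and beyond 200 bp it was 214 and then 130, with intervals that overlap those of the nearer bins. The bins beyond 300 bp exist only in pairs with widely spaced 3' ends and held 9 summits.

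**Figure D3:**
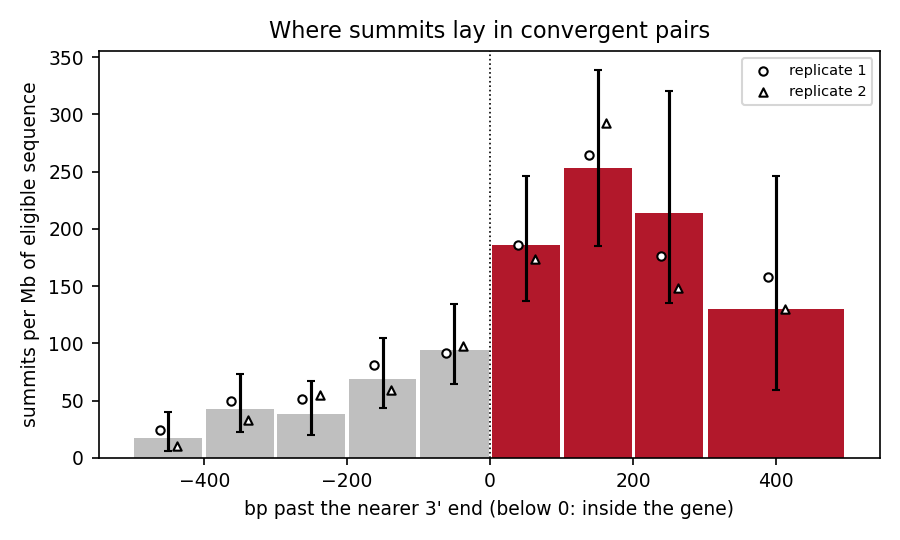
Summits per Mb of eligible sequence by position relative to the nearer 3' end of a convergent pair. Negative distances in bp lie inside the gene (grey) and positive ones between the 3' ends (red), bars are the optimal list with exact Poisson 95% intervals, and circles and triangles are replicates 1 and 2. The density was 17.2 per Mb deepest inside the genes and 253 per Mb at 101 to 200 bp past the 3' end.

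The left and right genes of a pair differ only by the strand that the reference genome calls plus. The right gene nevertheless held 56 summits and the left gene 27, although 36.2 and 35.5% of the eligible bases lay in them. The counts were 53 and 41 in replicate 1, 53 and 28 in replicate 2, and 280 and 195 in the pooled list. Counting only the strongest summit of each pair gave 44 in right genes and 25 in left genes in the optimal list, 42 and 39 in replicate 1, and 40 and 26 in replicate 2. The difference was thus small in replicate 1. As described above, the weaker of 2 close summits nearly always lay to the right, and its part in this difference was not tested.

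The share of pairs with a summit did not follow the distance between the 3' ends in 1 direction. Among 294 pairs with 0 to 50 bp between the ends, 41 (13.9%, interval 10.2 to 18.4%) had a summit, and the shares in replicates 1 and 2 were 15.3 and 13.9%. At 51 to 100 bp it was 9 of 135 (6.67%, 3.09 to 12.3%), at 101 to 250 bp 27 of 340 (7.94%, 5.30 to 11.3%), at 251 to 500 bp 54 of 487 (11.1%, 8.44 to 14.2%), and at 501 to 1000 bp 44 of 550 (8.0%, 5.87 to 10.6%). The intervals of all 5 bins overlap. Away from small RNA genes the shares were 13.6% (9.90 to 18.1%) at 0 to 50 bp and 6.36% (4.47 to 8.74%) at 501 to 1000 bp, and those intervals do not overlap. Per eligible base the tightest pairs stood higher, with 185 summits per Mb (136 to 245) against 68 (51.4 to 88.3) at 501 to 1000 bp. The median distance was 308 bp in pairs with a summit and 318 bp in pairs without.

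Summits went on beyond the limit of 1000 bp. The summit-bearing pairs just inside it, both at 996 bp, were rho-1, a small GTPase gene, with its left neighbour at a signal of 65.5, and Y44A6C.1 with ipla-3, a phospholipase gene, at 74.9. The nearest outside were rpl-42, a ribosomal protein gene, with nbs-1, a DNA repair gene, at 1021 bp and 61.8, and T18D3.1 with odr-7, an olfactory nuclear receptor gene, at 1029 bp and 196. Of 371 convergent pairs over 1000 and at most 2000 bp apart, 29 (7.82%, 5.30 to 11%) had a summit.

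The share also varied between chromosomes. On chromosome III 41 of 230 pairs (17.8%, interval 13.1 to 23.4%) had a summit, with 46 pairs in replicate 1 and 41 in replicate 2. On chromosome I it was 47 of 275 (17.1%, 12.8 to 22.1%), with 17.5 and 16%, and on IV 41 of 322 (12.7%, 9.29 to 16.9%), with 12.7 and 12.1%. Chromosome II had 25 of 301 (8.31%, 5.45 to 12%), with 9.30 and 7.64%. The lowest autosome was V, with 14 of 455 (3.08%, 1.69 to 5.11%) and 3.52 and 3.30% in the replicates. The intervals of I and III lie above that of V, and both replicates kept I, III and IV above II and II above V. The optimal list as a whole was uneven too, with 446 summits for chromosome III, 424 for I, 336 for II, 335 for IV and 287 for V. Convergent windows held 11.4, 13.4, 8.33, 14.6 and 5.57% of these summits in the same order. How much of the variation between chromosomes is particular to convergent pairs was not tested.

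On X 7 of 223 pairs (3.14%, 1.27 to 6.36%) had a summit, with 3.14% in replicate 1 and 3.59% in replicate 2, against 168 of 1583 (10.6%, 9.14 to 12.2%) on the autosomes, with 11.3 and 10.2%. Each of the 7 summits on X had a tRNA gene at most 250 bp away. The highest was between C04A11.5 and C04A11.2, with a signal of 217 in the optimal list, 92.8 in replicate 1 and 121 in replicate 2 and its summit inside the tRNA gene C04A11.t1. The next was between col-181, a cuticle collagen gene, and W03G11.2, with 202, 81.9 and 121 and the tRNA gene W03G11.t1 at 14 bp. The others were K09A11.1 with cyp-14A1 at 147, dyc-1 with lgc-21 at 142, cyp-13B2 with srg-36 at 95.4, C02B8.1 with F22F1.2 at 93.6 and srd-38 with srd-36 at 78.0. Away from small RNA genes 0 of 223 X pairs had a summit, which allows a share of up to 1.64%, against 152 of 1583 (9.60%, 8.20 to 11.2%) on the autosomes. All other 3' ends together had 2 such summits on X (1.23 per Mb), against 440 on the autosomes (52.0 per Mb). The near absence on X was thus not particular to convergent pairs.

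**Figure D4:**
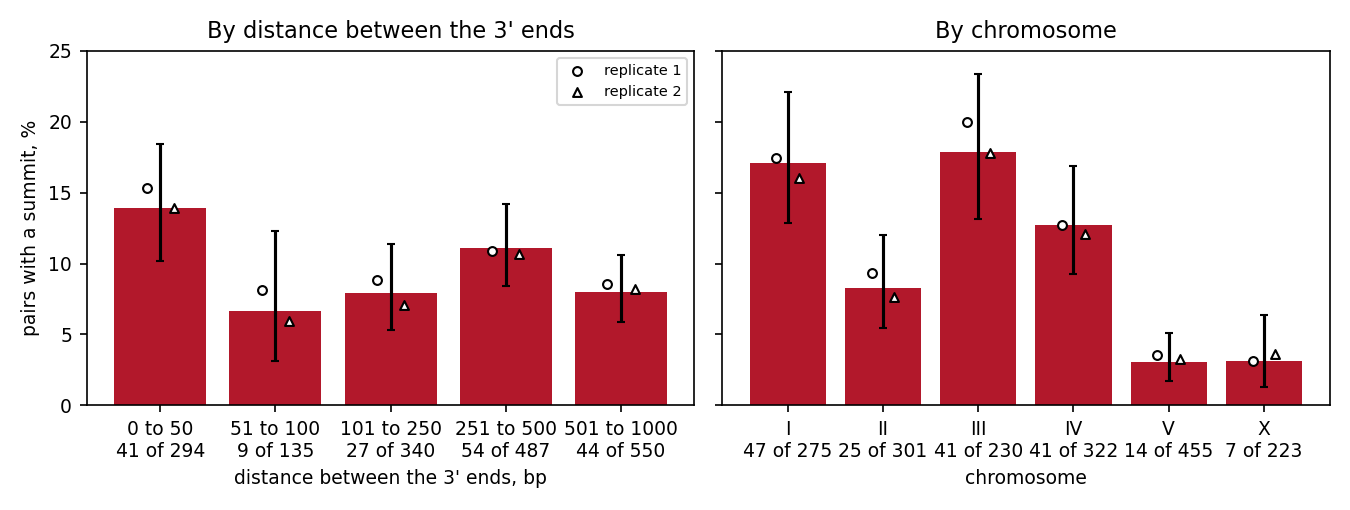
Share of convergent pairs with a summit, in percent, by the distance between the 3' ends (left) and by chromosome (right). Bars are the optimal list with exact binomial 95% intervals, circles and triangles are replicates 1 and 2, and the counts of pairs stand under the bars. The shares by distance, with small RNA genes included, range from 6.67 to 13.9% with overlapping intervals, and those by chromosome from 3.08% on V to 17.8% on III.

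Small RNA genes had a larger part among the other optimal summits than in the convergent windows. Within 250 bp of a tRNA, rRNA, snRNA or snoRNA gene lay 27 of the 208 window summits (13.0%, interval 8.73 to 18.3%) and 542 of the other 1843 (29.4%, 27.3 to 31.5%). The 27 had a median signal of 131 and the 181 away from such genes 89. The highest pair on chromosome V, str-56 with nhr-102, a chemoreceptor gene and a nuclear receptor gene, had such a gene 36 bp from its summit and scored 196, with 80.0 in replicate 1 and 119 in replicate 2. The second on V, pos-1 with lmd-3, had none near and scored 128, with 66.2 and 71.8. The gene pos-1 encodes a zinc-finger RNA-binding protein of the early embryo. On II the second pair after nep-25 and ZK1248.17 was C50D2.6 with mcat-1, at 184, 82.9 and 102.

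Pairs were then grouped by 25 lists of genes matched by name, a pair counting where either gene belonged to the list. The list names are labels only, and the tissue in which a gene is expressed was not checked. The lists were chosen with earlier results of these data known, and their intervals are not adjusted for the number of lists. An interval set beside the share of all pairs is therefore a description only. Eligible sequence was not compared between lists, and a gene of at most 500 bp has no eligible base by the rule on 5' ends. Among lists with 10 or more pairs the highest share was that of the cytosolic ribosomal proteins, the protein components of the ribosome, with 14 of 23 pairs (60.9%, interval 38.5 to 80.3%) carrying a summit, against 9.69% of all convergent pairs. The count was 14 in replicate 1 and 12 in replicate 2, and none of the 14 summits lay near a small RNA gene. The scores ran from 61.1 to 273 with a median of 107. After tald-1 with rpl-7A and thoc-2 with rps-13 came F36A2.7 with rps-15 at 166, which had 75.2 in replicate 1 and 87.9 in replicate 2. The others ran from rpl-3 with tir-1 at 124 and rpl-13 with ptr-2 at 122 down to rps-26 with gpr-158 at 61.1. In 8 of the 14 pairs (57.1%, 28.9 to 82.3%) an optimal summit also lay within 500 bp of a 5' end of either gene. Among all pairs with a summit this held in 41 of 175 (23.4%, 17.4 to 30.4%), and the intervals overlap. The strongest summit lay inside the partner gene at lmd-2 with rpl-4, rpl-41.2 with zig-7, rpl-3 with tir-1, rpl-35 with tag-307 and rps-26 with gpr-158. In the rest it lay between the 3' ends.

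The list of germ granule and small RNA genes had a summit in 6 of 11 pairs (54.5%, 23.4 to 83.3%), 5 in each replicate. This broad list also takes in pos-1, mex-5 and gld-4. The highest was mut-16, a gene for the scaffold of the mutator foci, with scpl-1, at 200 in the optimal list, 67.1 in replicate 1 and 140 in replicate 2. Next came pos-1 with lmd-3, and then C16C10.4 with hrde-1, a nuclear Argonaute gene, at 96.4, with 26.4 and 66.4. The other 3 pairs held mex-5 at 90.9, gld-4 at 79.1 and glh-2 at 76.3. In each of these 3 the summit lay inside the partner gene, in a coding exon. Oocyte and eggshell genes had 3 of 13 pairs (23.1%, 5.04 to 53.8%), led by cpg-1 with atf-7 and then cbd-1 with fbxb-76 at 92.3, with 52.7 and 44.2 in the replicates. The interval of this list includes the share of all pairs.

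Lists of housekeeping complexes other than the ribosome held few pairs. The proteasome had 2 of 9, let-711 with rpn-6.1 and rpn-2 with sna-3 at 111, and the latter had 30.7 in replicate 1 and 80.9 in replicate 2. Chaperones had 3 of 13, led by tfg-1 with dnj-29 at 114 and hsp-1 with nra-1 at 103, where hsp-1 encodes the constitutive HSP70. Vesicle trafficking and V-ATPase genes had 3 of 16, led by ubc-14 with vps-28 and Y38F2AR.3 with sec-61.B at 109. Splicing factors had 1 of 4 (rsp-8 with ntl-3), cleavage and polyadenylation factors 1 of 3 (xpc-1 with cpsf-1), ubiquitin conjugation 1 of 9 (ubc-14 with vps-28) and the respiratory chain 1 of 9 (cox-6A with cah-1 at 63.4, with no entry in replicate 2). Translation factors had 0 of 2, and aminoacyl-tRNA synthetases and RNA polymerase II subunits had no convergent pair. Counts this small bound the shares only loosely.

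Among genes of chromosomes themselves, smc-3, which encodes HIM-1's partner in the cohesin ring, formed a pair with rab-35 on III. Its score was 93.4, with 39.4 in replicate 1 and 57.7 in replicate 2, and the summit lay 32 bp past the 3' end of smc-3. The other pair of the cohesin list held ify-1, the securin gene, and had no optimal summit. The condensin and dosage compensation list had 1 of 2 pairs, lrp-1 with capg-1, a condensin subunit gene, at 111, with 31.9 in replicate 1 and 81.5 in replicate 2. Replication and cell cycle genes had 2 of 3 pairs, cdc-73 with pcn-1, the PCNA gene, at 90.0 and cyb-3, a B-type cyclin gene, with fbxa-199 at 76.0. Meiosis genes had 1 of 4, rmh-1 with klp-15 at 84.2. Histone genes, which sit in tight clusters in the worm, had 1 of 23 pairs (4.35%, 0.110 to 21.9%), edg-1 with his-47 at 113. Some of these pairs repeat the same gene names, such as his-15 with his-14, and how reads were placed among them is unknown.

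Chemoreceptors, expressed mostly in sensory neurons, had 7 of 199 pairs (3.52%, 1.43 to 7.11%), and only 2 of those summits lay away from small RNA genes. The highest were str-56 with nhr-102 and, on X, cyp-13B2 with srg-36. Cuticle collagens had 1 of 31 (3.23%, 0.0816 to 16.7%), the X pair of col-181 beside a tRNA gene. The intestine list, made up mostly of clec genes matched by name, had 2 of 58 (3.45%, 0.420 to 11.9%). They were clec-180 with F32E10.5 at 192 and lgc-45 with clec-127 at 170, both beside a small RNA gene. The list of major sperm proteins, which besides msp genes also holds gsp, nspd and ssp genes, had 0 of 12. This allows a share of up to 26.5%. Of these 4 lists only the interval of the chemoreceptors lies wholly below the 9.69% of all pairs.

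F-box and MATH/BTB genes had 3 of 53 pairs (5.66%), led by cbd-1 with fbxb-76 and ZK686.1 with bath-15 at 91.7. The neuron list, matched by name with no check of where its genes are expressed, had 3 of 40 (7.50%). It was led by nlp-40, a neuropeptide-like gene, with rcor-1 at 147 and let-858 with nlp-18 at 115. Muscle genes had 1 of 7 (14.3%), mrpl-40 with pat-4, the integrin-linked kinase gene, at 137, with 56.9 and 80.2 in the replicates. The intervals of these 3 lists include the 9.69% of all pairs, whereas those of the ribosomal and germ granule lists lie above it. The germ granule interval counts the pairs of pos-1, mex-5 and gld-4, each with a summit, and was not computed without them. Chemoreceptor pairs lie mostly on chromosome V, where 2 of 141 (1.42%, 0.172 to 5.03%) had a summit, against 12 of 314 other pairs on V (3.82%, 1.99 to 6.58%). On the other chromosomes the counts were 5 of 58 chemoreceptor pairs (8.62%, 2.86 to 19%) and 156 of 1293 other pairs (12.1%, 10.3 to 14%). The intervals of chemoreceptor and other pairs overlap on both sides of this division, and the interval of the other pairs on V lies below that of the other pairs elsewhere.

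Pairs with and without a summit were also compared in other readouts, not all of them independent of the rule. Summits at 5' ends come from the same list and are left out by the rule, and gene length affects the eligible sequence. An optimal summit lay within 500 bp of the 5' end of either gene in 41 of 175 pairs with a convergent summit (23.4%, interval 17.4 to 30.4%) and in 89 of 1631 without (5.46%, 4.40 to 6.67%). The shares were 21.5 and 5.31% in replicate 1 and 21.8 and 5.38% in replicate 2. Among pairs whose genes are both over 1500 bp long, where the ends are well separated, they were 23 of 113 (20.4%) and 36 of 671 (5.37%). Counted per gene, the 5' end had a summit in 46 of 350 genes of pairs with a convergent summit (13.1%, 9.79 to 17.1%), in 94 of 3262 genes of pairs without (2.88%, 2.33 to 3.52%) and in 892 of all 19973 protein-coding genes (4.47%, 4.18 to 4.76%). A summit at a 5' end was thus more frequent in pairs with a convergent summit in both replicates and among the long genes, and transcription was not measured here.

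The genes of pairs with a summit were longer, with a median of 3210 bp against 1881 bp. Their windows held about as much eligible sequence, with medians of 1246 and 1185 bp. A same-strand gene ended within 500 bp upstream of 69 of 350 genes of pairs with a summit (19.7%, interval 15.7 to 24.3%), as in operons. The same held for 484 of 3262 genes of pairs without a summit (14.8%, 13.6 to 16.1%), and the intervals overlap. On the autosomes 70 of 168 pairs with a summit (41.7%, 34.1 to 49.5%) and 472 of 1415 without (33.4%, 30.9 to 35.9%) lay in the middle of 3 equal parts of the chromosome. These intervals overlap too. A small RNA gene lay within 250 bp of the stretch between the 3' ends in 23 of 175 pairs with a summit (13.1%) and in 5 of 1631 without (0.307%).

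The letters around the summits were compared with those of other convergent pairs and of other peaks. In the 201 bp centred on the strongest summit of each pair the median G and C content was 34.8%, against 31.8% midway between the 3' ends of 899 pairs with no entry in any list and 38.8% at the other optimal summits. The polyadenylation hexamer AATAAA, searched on both strands, was in 53.7% of the 175 windows, in 59.0% of the 899 and in 41.9% of the other summits. GAGAGA on either strand was in 9.14, 6.79 and 15.2%, and CCGCCC or CCCGCC on either strand, which may overlap each other, in 4.57, 5.01 and 12.9%. A run of 8 T or 8 A was in 20.6, 23.8 and 20.6%, and CACGTG in 3.43, 3.0 and 3.85%. These windows differ in what they are centred on. Centred midway between the 3' ends, as in the 899, the pairs with a summit had AATAAA in 48% (interval 40.4 to 55.7%), against 59.0% (55.7 to 62.2%) in the 899, and a G and C median of 33.8%. Away from small RNA genes AATAAA was in 55.9% of the windows at convergent summits and 47.8% at other summits, and the G and C medians were 33.8 and 36.8%. A match of letters is no evidence of a bound factor.

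The strongest entries of the 2 replicates shared most of their pairs. Of the 175 pairs, 173 had an entry in both replicates' full lists, and 134 (76.6%) were among the 2051 strongest entries of both. Another 39 were among the strongest of 1 replicate and 2 of neither. These counts were favoured in advance, because the optimal list keeps peaks that passed the authors' reproducibility threshold. The full lists of replicates 1 and 2 also put a summit in 39.2 and 38.6% of all 1806 pairs. The 137 pairs shared by the strongest entries were 73.7% of the 186 of replicate 1 and 80.6% of the 170 of replicate 2. The strongest summits of the 2 replicates lay a median of 39 bp apart, and within 200 bp in 157 of 173 pairs (90.8%). Over these 173 pairs the Spearman correlation of the 2 scores was 0.642, a description of pairs that share libraries and were chosen from the optimal list.

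**Figure D5:**
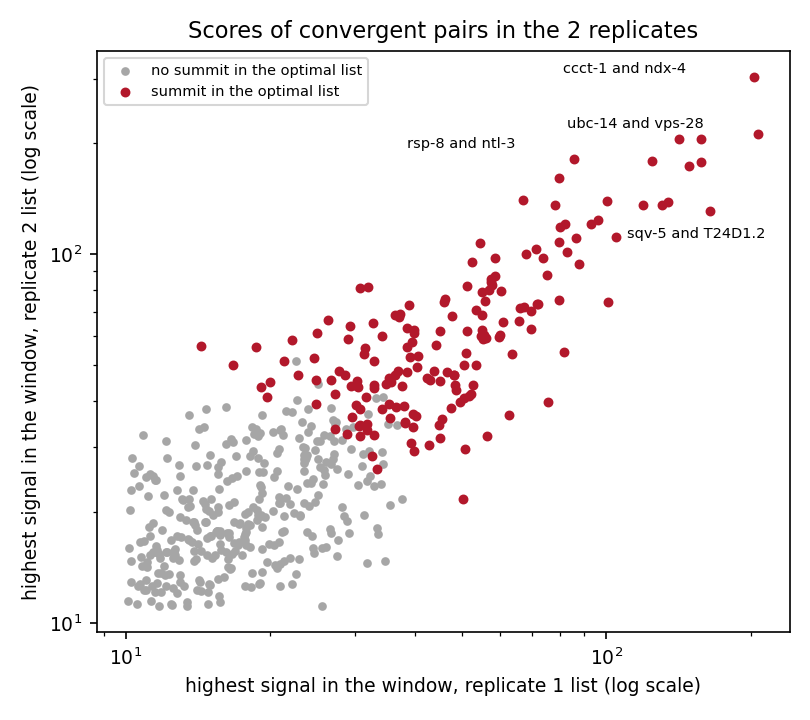
Highest signal in the window of each convergent pair in the full lists of replicate 1 (horizontal) and replicate 2 (vertical), both on log scales, for pairs with an entry in both. Red points are pairs with an optimal summit and grey points pairs without, and 4 of the 12 highest pairs are named. The optimal pairs fill the upper right, with rsp-8 and ntl-3 above the trend at 85.6 and 182.

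Below the threshold of the optimal list lay many weaker entries. The pooled list of 18314 entries put a summit in 633 pairs (35.0%, background 10.6%), and the full lists of replicates 1 and 2 in 708 and 697 pairs (39.2 and 38.6%, background 12.6% in each). Of the 1631 pairs without an optimal summit, 341 (20.9%) had entries in the full lists of both replicates. The strongest were garr-1 with Y66H1A.5 at a pooled signal of 60.8, Y47D3A.32 with obr-1, an oxysterol-binding protein gene, at 60.5, and Y106G6H.1 with pab-1, a poly(A)-binding protein gene, at 60.4. The lowest signal in the optimal list was 60.8, so these 3 pairs lay at its edge. No list had an entry in the windows of 903 of the 1806 pairs, and 4 pairs had no eligible base. The tagged gene itself, him-1 at I:4951571-4957667 on the minus strand, is in no convergent pair, and the optimal summit nearest its 3' end lay 2130 bp away with a signal of 101.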

How the data were processed

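The deposited files are peak lists on ce11, 1 for each of 2 replicates, a pooled list and the authors' optimal list after a reproducibility (IDR) threshold; the ce10 copies were not used here. Per the labels, the assay was ChIP-seq of sonicated chromatin. The deposited signal (column 7) and the authors' −log10 q-value are theirs per peak; the sources used here do not give the aligner, peak caller or control, and read depth is unknown. Summits were placed by column 10. Neighbours were the protein-coding genes on both sides of a stretch free of protein-coding genes (Ensembl release 115). Shares have exact Clopper-Pearson and densities exact Poisson 95% intervals, which cover counting error only and treat pairs as independent. Replicate values use each replicate's 2051 strongest entries. No test across conditions was possible with 1 group. Scoring was tested on simulated peaks placed inside and outside the same windows. There 100% of 200 planted pairs in each of 20 sets were recovered with 0 false pairs. This checks only that summits are assigned to their windows, not the annotation or the real peaks. Named pairs were the 12 highest, the 2 highest per chromosome other than I and per gene list, 3 below the threshold and those at the distance limit; any others were chosen after their values were seen. Names of tRNA genes came from RefSeq by position (612 of 612). The members and gene lists were chosen with earlier results of these data known. Python 3.11.15, pandas 2.3.3, numpy 2.4.6, scipy 1.17.1 and matplotlib 3.10.9 were used.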

Additional observations from a re-analysis of the deposited data

How the results depend on the processing

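In every setting that gave a value, convergent windows had more summits per Mb than other 3' ends and X pairs a lower share than all pairs. Against 9.69% of pairs with a summit, the share was 5.87% with the stronger of 2 equal parts of the optimal list, 35.0% with all pooled entries, 8.64% with a reach of 250 bp, 8.03% over 1000 bp from 5' ends, 10.4% with at most 500 bp between 3' ends, 8.42% without summits near small RNA genes, 10.3% with coding ends and 14.4% for genes over 1500 bp, an added choice. Each replicate alone gave 9.41 to 10.3%. In the same order, against 10.1% of list summits in the windows, the share was 11.9, 4.88, 8.97, 8.48, 7.41, 12.2 and 16.7%, and 11.8% with at most 2000 bp between 3' ends; each replicate alone gave 9.90 to 10.7%. The density ratio of 1.88 became 2.54, 1.37, 2.09, 1.73, 2.16, 1.91 and 3.44, then 1.95 with a reach of 1000 bp, 1.81 over 250 bp from 5' ends, 1.56 at 2000 bp and 1.81 with genes in order of start; each replicate alone gave 1.90 to 1.94. The X share of 3.14% became 2.69% with the stronger part of the list, 17% pooled, 3.59% with a reach of 1000 bp, over 250 bp from 5' ends or with peak intervals, 4.61% at 2000 bp, 0% without summits near small RNA genes and 1.69% with coding ends; each replicate alone gave 3.14 to 3.59%. The share of summits between the 3' ends, 60.1%, became 71.3% with the stronger part, 46.8% pooled, 67.9% at a reach of 250 bp, 46.7% at 500 bp, 64.7% at 2000 bp, 56.9% without small RNA genes and 56.7% with coding ends; each replicate alone gave 57.1 to 60.1%. Without summits that have a stronger one within 250 bp, an added choice, 9.36% of list summits lay in the windows and the ratio was 1.74. Peak intervals have no single position and gave no ratio or place. Where the setting changes the list or the windows, the values change by construction; other causes were not tested. No paired analysis was possible because there is only 1 group. Depth is unknown, so pairs without a summit may hold weaker binding, and without a control library signal not due to HIM-1 cannot be told apart.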
